A study of Drosophila melanogaster with 6 samples.

Results

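CG9740 RNAi was compared directly with CP190 RNAi in Drosophila S2 cells, using the 4 arrays of these groups out of 6 in the series. S2 is a cultured fly line that came from embryos and resembles blood cells. RNA interference (RNAi) lowers the transcript that matches a supplied double-stranded RNA. The groups were CG9740 RNAi (2 arrays) and CP190 RNAi (2 arrays), set against each other, with LacZ RNAi (2 arrays), aimed at a bacterial gene, used here to show where each level lay without either knockdown and, in alternative fits, to help estimate the spread. The series design calls the arrays of a group biological replicates. All groups were the same cell line under an RNAi treatment. How much double-stranded RNA was used, and for how long, is not given in the sources used here.

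CG9740 is the gene now called Ibf2, and Ibf1 and Ibf2 are DNA-binding proteins that act together and bring CP190 to insulators. Insulators are elements that keep an enhancer from acting on the wrong promoter and that border chromatin domains. CP190, encoded by Cp190, is a zinc finger protein found at most kinds of fly insulator and, in dividing cells, at the centrosome. The comparison asks which transcripts respond differently to loss of a factor that recruits CP190 and to loss of CP190 itself. The series title names co-regulation by the 2 proteins as its subject.

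The values are log2 expression values, 1 per probe set and array, from an Affymetrix array with 18769 probe sets apart from the 183 controls. Each array had a median between 5.69 and 5.74. Taken over all probe sets, a correlation within arrays and not over replicates, the 2 CG9740 arrays correlated at Pearson r 0.998, the 2 CP190 arrays at 0.998 and the arrays of different groups at 0.997 to 0.998. The CG9740 arrays differed from each other by at least 1 on the log2 scale at 43 probe sets, and the CP190 arrays at 3. Among 27 Bacillus control probe sets the brightest, which no fly transcript should match, averaged 6.07, and 46.0% of probe sets lay above it. Below this level background compresses a difference, so no fold is given there. The 3' minus 5' difference of 3 control transcripts, a sign of RNA integrity, was 0.95 and 0.90 on the CG9740 arrays, against 0.95 and 0.86 on the CP190 arrays. Hemocyte markers were detected above the Bacillus level for 8 of 11 measured genes, against 0 of 3 muscle and 0 of 5 fat body markers, and 3 of 5 neuron markers. NimC1, a phagocytosis receptor of larval blood cells, and lz, the crystal cell factor, lay below that level on all 4 arrays.

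Few probe sets passed the threshold between the knockdowns, and with 2 arrays a group small changes could be missed. Of the 18769 probe sets, 21 (0.112%) passed the test, 11 higher in CG9740 RNAi (0.0586%) and 10 lower (0.0533%). The test was limma on the 4 arrays with Benjamini-Hochberg adjustment over all probe sets, and an adjusted p under 0.05 was called. The log2 differences, CG9740 RNAi minus CP190 RNAi, of the called probe sets were 0.73 to 2.25 in size, and 99.2% of all probe sets differed by less than 0.5. The 2 groups of arrays did not overlap at any of the 21, as at 31.0% of all probe sets, which with 2 arrays a group a call all but requires. An unadjusted p under 0.05 was reached by 929 probe sets (4.95%), of which 372 read higher in CG9740 RNAi and 557 lower, a share close to that of the threshold itself. In 15 of the 21 both groups lay above the brightest Bacillus control. Of the 21, 19 are listed for a single gene and 2 have no gene in the annotation used here. All 21 calls held without either CG9740 array, where the number of calls was 131 without replicate 1 and 39 without replicate 2. Without either CP190 array no call held. The spread then rested on the CG9740 arrays alone, and without either CG9740 array on the CP190 arrays alone. The cause of the lost calls was not tested. With the LacZ arrays in the fit for the spread there were 15 calls, all among the 21. With 1 knockdown array removed from that fit, the calls still held among the 21 were 8 (CG9740 replicate 1 removed, which made 14 calls in all), 6 (CG9740 replicate 2), 4 (CP190 replicate 1) or 3 (CP190 replicate 2). The 6 calls lost with the LacZ arrays were CG10621, TM4SF, vir-1, CG3091, bip1 and Mrp4. Quantile normalization left 11 calls, without CG3703, CG10621, TM4SF, vir-1, Prx6c, Cyp40, CG6790, Mrp4 and the 2 unnamed probe sets.

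**Figure D1:**
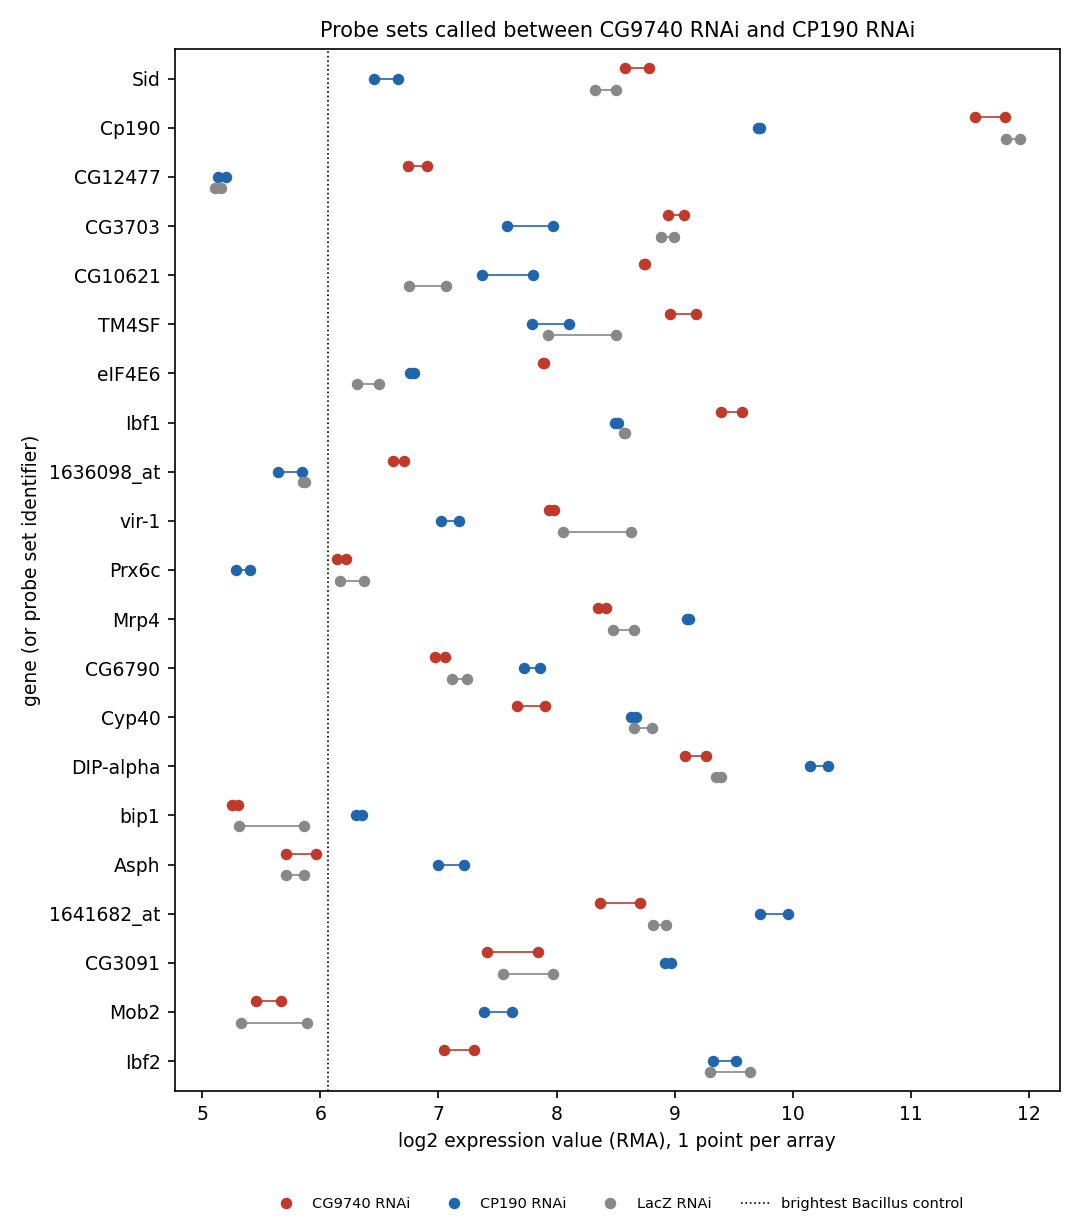
Log2 expression value on each array (points joined within a group) for the 21 called probe sets, ordered from the highest to the lowest difference between CG9740 RNAi (red) and CP190 RNAi (blue), with LacZ RNAi (grey) and the brightest Bacillus control at 6.07 (dotted line). The red and blue points do not overlap in any row, and the grey points lie near one colour in some rows and apart from both in others.

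The RNAi targets check the labels. The Ibf2 probe set (1639645_at), which measures the CG9740 transcript, read 7.05 and 7.30 in CG9740 RNAi, against 9.33 and 9.52 in CP190 RNAi, with 9.30 and 9.64 in LacZ RNAi. Both CG9740 arrays were low and the other 4 arrays overlapped, so the CG9740 label is borne out by its target. The difference was -2.25 (95% interval -2.53 to -1.97, a 4.75-fold lower signal, limma adjusted p 0.00117). The Cp190 probe set (1631940_s_at) read 11.80 and 11.54 in CG9740 RNAi, against 9.71 and 9.72 in CP190 RNAi, with 11.81 and 11.92 in LacZ RNAi. Here both CP190 arrays were low, and the difference was 1.95 (95% interval 1.70 to 2.21, 3.87-fold, limma adjusted p 0.00117). The ending _s_at marks probes that can match transcripts of more than 1 gene, though the annotation lists Cp190 alone. At Ibf2 the CP190 and LacZ arrays overlapped, while at Cp190 the CG9740 arrays read just below the LacZ arrays.

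Ibf1, the partner of Ibf2 and the next gene along the chromosome, was higher in CG9740 RNAi. Its probe set (1630527_at) read 9.57 and 9.39 in CG9740 RNAi, against 8.50 and 8.52 in CP190 RNAi, with 8.58 and 8.57 in LacZ RNAi. The CG9740 arrays stood above the other 4, which lay within a narrow range. The sources used here do not say which regions the double-stranded RNAs cover, so whether the Ibf1 and Ibf2 probe sets can detect that RNA itself was not tested. The difference was 0.97 (95% interval 0.74 to 1.20, 1.96-fold, limma adjusted p 0.0262). Without 1 array of the 4 the Ibf1 difference was 0.88 to 1.06, the Ibf2 difference -2.38 to -2.12 and the Cp190 difference 1.82 to 2.08. All 3 calls were lost without either CP190 array, and with the LacZ arrays in the fit the Cp190 call held without any knockdown array, the Ibf2 call without any but CP190 replicate 2 and the Ibf1 call only without CG9740 replicate 2.

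In 5 of the 11 probe sets higher in CG9740 RNAi, the CP190 mean lay further from the LacZ mean than the CG9740 mean did, a share close to the 48.6% over all probe sets. Beside Cp190 these were Sid, CG3703, vir-1 and Prx6c. The difference was largest at Sid (1634674_at), which encodes a stress-induced DNase. Sid read 8.78 and 8.58 in CG9740 RNAi, against 6.65 and 6.45 in CP190 RNAi, with 8.33 and 8.50 in LacZ RNAi. Its difference of 2.13 (95% interval 1.86 to 2.39, 4.37-fold, limma adjusted p 0.00117) was the highest of all probe sets, and the CP190 arrays were the low ones. CG3703 (1624554_at) read 8.94 and 9.08 in CG9740 RNAi, against 7.97 and 7.58 in CP190 RNAi, with 8.89 and 9.0 in LacZ RNAi, a difference of 1.23 (95% interval 0.92 to 1.55, 2.35-fold, limma adjusted p 0.0341). The gene vir-1, a marker of the response to RNA virus infection, read 7.98 and 7.94 in CG9740 RNAi, against 7.03 and 7.18 in CP190 RNAi, with 8.05 and 8.63 in LacZ RNAi (1625012_s_at). It was below LacZ RNAi in both knockdowns and lower in CP190 RNAi, with a difference of 0.86 (1.81-fold, limma adjusted p 0.0341). Prx6c, an antioxidant peroxiredoxin, read 6.14 and 6.22 in CG9740 RNAi, against 5.40 and 5.29 in CP190 RNAi, with 6.37 and 6.16 in LacZ RNAi (1633471_at). Its CP190 values lay below the Bacillus level, so its difference of 0.83 (limma adjusted p 0.0341) gives no exact fold. Without 1 array of the 4 the difference was 2.02 to 2.23 for Sid, 1.04 to 1.43 for CG3703, 0.78 to 0.93 for vir-1 and 0.78 to 0.89 for Prx6c, and each call was lost without either CP190 array.

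In the other 6, Ibf1 among them, the CG9740 mean lay further from the LacZ mean. In these 6, and also at Sid, both CG9740 arrays read above all CP190 and LacZ arrays, which a call for higher CG9740 values favours. The share of all probe sets with this order was not taken. CG12477 (1623456_at) read 6.74 and 6.91 in CG9740 RNAi, against 5.20 and 5.14 in CP190 RNAi, with 5.11 and 5.16 in LacZ RNAi. The CP190 and LacZ arrays read alike and lay below the Bacillus level, and the difference was 1.66 (95% interval 1.43 to 1.88, limma adjusted p 0.00131). The gene eIF4E6, a paralogue of the cap-binding translation factor eIF4E, read 7.89 and 7.89 in CG9740 RNAi, against 6.76 and 6.79 in CP190 RNAi, with 6.31 and 6.50 in LacZ RNAi (1633137_at). Both knockdowns lay above LacZ RNAi, CG9740 RNAi further, with a difference between them of 1.12 (95% interval 0.92 to 1.32, 2.17-fold, limma adjusted p 0.00662). CG10621 (1626086_at), predicted to encode a homocysteine S-methyltransferase, had the same order, with 8.74 and 8.75 in CG9740 RNAi, against 7.80 and 7.37 in CP190 RNAi, with 7.06 and 6.75 in LacZ RNAi (difference 1.16, 2.24-fold, limma adjusted p 0.0482). TM4SF, a tetraspanin membrane protein, read 8.96 and 9.18 in CG9740 RNAi, against 7.79 and 8.10 in CP190 RNAi, with 8.51 and 7.93 in LacZ RNAi (1633696_at; difference 1.12, 2.18-fold, limma adjusted p 0.0410). The CP190 and LacZ arrays overlapped there. The unnamed 1636098_at read 6.61 and 6.71 in CG9740 RNAi, against 5.84 and 5.64 in CP190 RNAi, with 5.85 and 5.87 in LacZ RNAi, a difference of 0.92 (limma adjusted p 0.0341) with the CP190 and LacZ arrays below the Bacillus level. Without 1 array of the 4 the difference was 1.57 to 1.74 for CG12477, 1.10 to 1.13 for eIF4E6, 0.95 to 1.38 for CG10621, 0.97 to 1.28 for TM4SF and 0.82 to 1.02 for 1636098_at. Each call was lost without either CP190 array.

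Of the 10 probe sets lower in CG9740 RNAi, 8 had both CP190 arrays above both LacZ arrays, as did 19.4% of all probe sets. The CP190 mean was the further one from LacZ in the same 8, against 48.6% over all probe sets and 13 of the 21 called. The others were the target Ibf2 and Cyp40. Both CG9740 arrays lay below both LacZ arrays in 7 of the 10, a count for which no share over all probe sets was taken. A call for lower CG9740 values favours CP190 values above LacZ and CG9740 values below it. The 19.4% over all probe sets is therefore not a like share. Mob2 encodes an activator of NDR family kinases. Its probe set 1640774_a_at read 5.67 and 5.45 in CG9740 RNAi, against 7.38 and 7.63 in CP190 RNAi, with 5.33 and 5.88 in LacZ RNAi. The CG9740 and LacZ arrays overlapped below the Bacillus level, and the difference was -1.95 (95% interval -2.23 to -1.67, limma adjusted p 0.00144). A second Mob2 probe set, 1639682_at, differed by -0.18 (95% interval -0.52 to 0.17, limma adjusted p 1.0), so the probe sets of this gene disagree. Asph, an aspartyl beta-hydroxylase, showed the same kind of pattern in 1629597_a_at, with 5.71 and 5.96 in CG9740 RNAi, against 7.0 and 7.22 in CP190 RNAi, with 5.86 and 5.71 in LacZ RNAi (difference -1.27, limma adjusted p 0.0214). A second Asph probe set, 1625600_a_at, differed by -0.33 (limma adjusted p 0.896). Probe sets of a gene can cover different transcripts, and which ones these cover is not given in the sources used here. Without 1 array of the 4 the difference was -2.07 to -1.82 for 1640774_a_at (Mob2) and -1.40 to -1.15 for 1629597_a_at (Asph), and both calls were lost without either CP190 array.

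The other transcripts that were high in CP190 RNAi were of varied kinds. DIP-alpha, an immunoglobulin-family surface protein that neurons use in synaptic partner choice, read 9.26 and 9.09 in CG9740 RNAi, against 10.14 and 10.30 in CP190 RNAi, with 9.35 and 9.39 in LacZ RNAi (1633062_at). The CP190 arrays stood apart and the difference was -1.04 (95% interval -1.29 to -0.80, a 2.06-fold lower signal, limma adjusted p 0.0262). The neuron marker list had 0 of 8 probe sets called and a summed linear level of 1318 and 1295 on the CG9740 arrays, against 1333 and 1368 on the CP190 arrays. CG3091 (1639897_at) read 7.41 and 7.84 in CG9740 RNAi, against 8.97 and 8.92 in CP190 RNAi, with 7.55 and 7.97 in LacZ RNAi, a difference of -1.32 (a 2.49-fold lower signal, limma adjusted p 0.0317). The gene bip1, named for its product's interaction with the transcription factor Bric-a-brac, read 5.25 and 5.31 in CG9740 RNAi, against 6.31 and 6.35 in CP190 RNAi, with 5.32 and 5.86 in LacZ RNAi (1639746_at; difference -1.05, limma adjusted p 0.0101). The CG9740 and LacZ values of bip1 were below the Bacillus level. The unnamed 1641682_at differed by -1.31 (limma adjusted p 0.0314), with 8.70 and 8.37 in CG9740 RNAi, against 9.72 and 9.96 in CP190 RNAi, with 8.82 and 8.92 in LacZ RNAi. At DIP-alpha, bip1 and 1641682_at the CG9740 arrays also lay below the LacZ arrays. Cyp40, a cyclophilin that works with Hsp90, was the exception, with CP190 arrays that overlapped the LacZ arrays and CG9740 arrays below both. It read 7.66 and 7.90 in CG9740 RNAi, against 8.67 and 8.63 in CP190 RNAi, with 8.66 and 8.81 in LacZ RNAi (1635293_s_at; difference -0.87, a 1.83-fold lower signal, limma adjusted p 0.0482). Without 1 array of the 4 the difference was -1.13 to -0.96 for DIP-alpha, -1.53 to -1.10 for CG3091, -1.08 to -1.02 for bip1, -1.47 to -1.14 for 1641682_at and -0.99 to -0.75 for Cyp40. Each call was lost without either CP190 array.

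**Figure D2:**
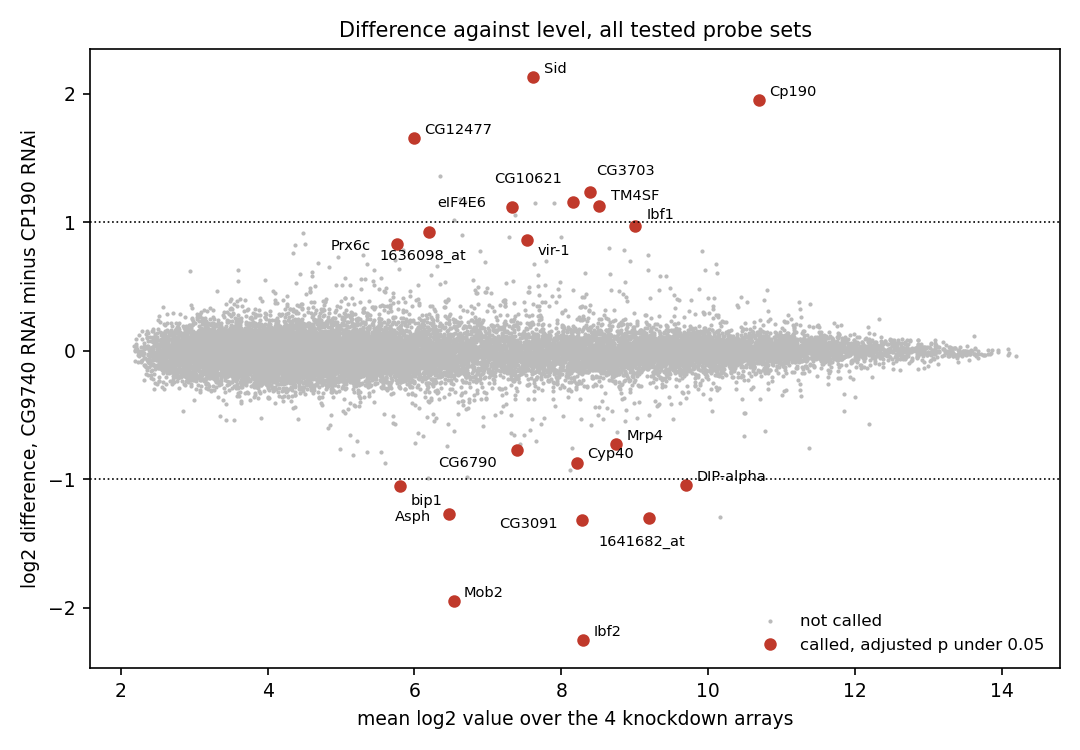
Log2 difference, CG9740 RNAi minus CP190 RNAi (vertical), against the mean log2 value over the 4 knockdown arrays (horizontal) for all 18769 probe sets, with the 21 called ones in red and dotted lines at a 2-fold difference. Sid and Cp190 lie highest, and Ibf2 and Mob2 lowest.

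Mrp4, an ABC transporter of the multidrug resistance family, and its neighbour CG6790 were both lower in CG9740 RNAi. Mrp4 (1637439_at) read 8.35 and 8.42 in CG9740 RNAi, against 9.10 and 9.12 in CP190 RNAi, with 8.48 and 8.66 in LacZ RNAi, a difference of -0.73 (95% interval -0.93 to -0.52, limma adjusted p 0.0482). CG6790 (1624946_at) read 6.97 and 7.06 in CG9740 RNAi, against 7.86 and 7.72 in CP190 RNAi, with 7.11 and 7.24 in LacZ RNAi, a difference of -0.77 (95% interval -1.0 to -0.55, limma adjusted p 0.0498). In both, the CP190 arrays were the high ones and the CG9740 arrays lay just below the LacZ arrays. The next gene in that direction, CG5342 (1626026_at), read 7.05 and 6.99 in CG9740 RNAi, against 7.63 and 7.72 in CP190 RNAi, with 7.08 and 7.23 in LacZ RNAi. Its difference of -0.65 (95% interval -0.87 to -0.44) missed the threshold with a limma adjusted p of 0.0864. On the other side fabp, a fatty acid binding protein gene, differed by -0.04, and beyond CG5342 the gene wkd differed by 0.11. The annotated spans of Mrp4 and CG6790 overlap, and whether either probe set detects transcripts of the other gene was not tested. Those of CG6790 and CG5342 do not overlap. Without 1 array of the 4 the difference was -0.76 to -0.69 for Mrp4 and -0.84 to -0.71 for CG6790. Both calls were lost without either CP190 array, and that of CG6790 also after median centring (limma adjusted p 0.0581).

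Gene order was then used to describe the surroundings of the called genes, a comparison chosen after these values had been seen. Protein-coding genes were ordered along the chromosomes of the Release 6 assembly, with the brightest probe set taken for each of 11983 measured genes, and the called one for a called gene at the centre. The 19 called genes had 38 direct neighbours, of which 35 were measured. Of these 35, 4 were called, against 19 of the 11983 genes (0.159%), and they are the pairs Ibf2 with Ibf1 and Mrp4 with CG6790 counted from both sides, so each is itself a called gene. A difference of at least 0.5 in either direction was present at 6 of the 35, against 115 of all 11983 genes (0.960%), and at 2 of the 31 neighbours that were not called themselves. The median size of the difference was 0.12 over the 35, 0.09 over the 31 and 0.07 over all genes. The 2 were CG5342 and CG11825, the neighbour of Prx6c. CG11825 (1635263_at) read 8.83 and 9.09 in CG9740 RNAi, against 8.45 and 8.28 in CP190 RNAi, with 9.11 and 9.43 in LacZ RNAi, a difference of 0.60 (limma adjusted p 0.298). On one side of DIP-alpha the next gene, CG13021, differed by -0.49 (limma adjusted p 0.320) and the one after it, ppk8, a sodium channel subunit of the pickpocket family, by -0.44 (limma adjusted p 0.896), and the spans of both overlap that of DIP-alpha. The neighbours of Sid, CG12477, Cp190 and eIF4E6 that were measured differed by less than 0.3 in size.

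**Figure D3:**
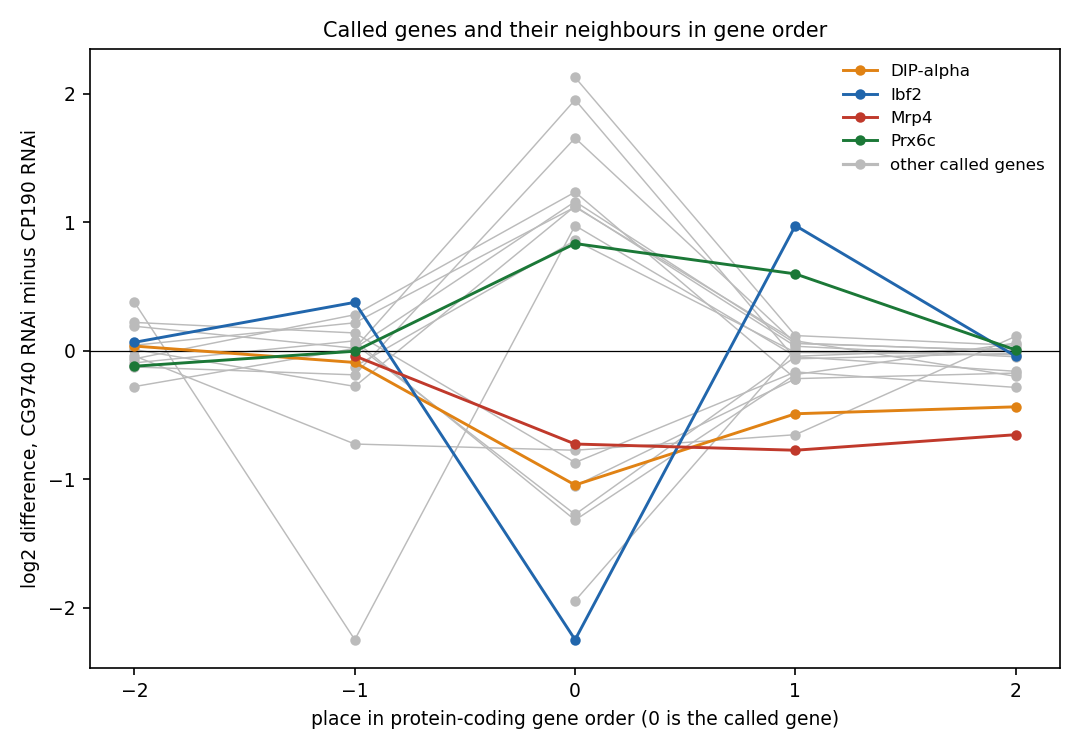
Log2 difference, CG9740 RNAi minus CP190 RNAi, of the 19 called genes (place 0) and of the measured genes up to 2 places away in protein-coding gene order, each line being the surroundings of 1 called gene and missing points being unmeasured genes. Lines for Mrp4 and DIP-alpha stay below 0 on one side, the line for Ibf2 is at -2.25 at Ibf2 and at 0.97 at Ibf1, and most others return to near 0 at the next gene.

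Over the whole genome, 7 of 10345 adjacent measured gene pairs had both members at least 0.5 apart between the knockdowns, 6 with the same sign and 1, Ibf2 with Ibf1, with opposite signs. Beside those already named these were vkg with Col4a1, CG1208 with CG1213 and Buffy with CG13196, none of them called. The collagen IV genes vkg and Col4a1 encode basement membrane chains that blood cells secrete. The vkg probe set (1639229_at) read 5.20 and 5.14 in CG9740 RNAi, against 5.76 and 6.32 in CP190 RNAi, with 5.80 and 5.98 in LacZ RNAi, a difference of -0.88 (limma adjusted p 0.294) around the Bacillus level. Col4a1 (1630150_s_at) read 9.37 and 8.47 in CG9740 RNAi, against 9.40 and 9.76 in CP190 RNAi, with 9.78 and 9.98 in LacZ RNAi, a difference of -0.66 (limma adjusted p 1.0). CG9740 replicate 2 was the lowest of the 6 arrays at both. CG9740 replicate 2 was also the highest of the 6 arrays at CG1208 (5.59, against 4.29 in replicate 1) and CG1213 (8.42, against 5.78 in replicate 1).

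The gene lists were chosen by function, with earlier results of these data known. They were read against 0.112% called and a median difference of -0.01 over all probe sets. Of 41 probe sets for 18 insulator protein genes, 2 were higher (Cp190 and Ibf1) and 1 lower (Ibf2) in CG9740 RNAi, with a list median of -0.07. This list holds both RNAi targets, so its calls are in part those of the treatment. The other 38 differed by -0.25 to 0.07, among them 22 for mod(mdg4), an insulator protein with many transcript forms, and those for su(Hw), CTCF, BEAF-32 and the GAGA factor gene Trl, and none was called. CTCF had the lowest of these, -0.25 in 1636485_at. In the centrosome list, where CP190 protein also acts, 0 of 18 probe sets were called and the differences were -0.18 to 0.15. In the Polycomb and trithorax list 0 of 14 were called, with -0.15 to 0.17. The homeotic genes, textbook targets of insulators, were measured by 6 probe sets for 4 genes, 0 called, and all lay below the Bacillus level. In the RNA interference list 0 of 7 were called, with -0.30 to 0.09.

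The innate immune list had 0 of 15 probe sets called and a median of 0.09, against -0.01 over all probe sets. An unadjusted p under 0.05 was reached by 4 of the 15, against 4.95% of all probe sets. In 12 of the 15 the CG9740 mean was the higher one, a count for which no share over all probe sets was taken. The 4 at an unadjusted p under 0.05 were antimicrobial peptide genes, picked after their values were seen. AttD (1631475_at) read 10.32 and 10.23 in CG9740 RNAi, against 9.75 and 9.54 in CP190 RNAi, with 9.65 and 10.34 in LacZ RNAi (difference 0.63, limma adjusted p 0.169). DptB (1638235_at) read 9.30 and 9.70 in CG9740 RNAi, against 8.92 and 8.83 in CP190 RNAi, with 8.57 and 8.75 in LacZ RNAi (difference 0.63, limma adjusted p 0.439). Drs, the gene of the antifungal peptide drosomycin, read 9.07 and 9.04 in CG9740 RNAi, against 8.59 and 8.63 in CP190 RNAi, with 8.29 and 9.34 in LacZ RNAi (1635189_at; difference 0.44, limma adjusted p 0.298). Mtk differed by 0.31 (limma adjusted p 1.0). The CG9740 arrays were above the CP190 arrays at these 4 genes, but at AttD and Drs 1 LacZ array read within or below the CP190 values and the other above the CG9740 values. Of the other antimicrobial peptide genes measured, CecB differed by 0.21 and Def by 0.03, with overlapping groups at Def (both limma adjusted p 1.0). PGRP-SB1, a secreted peptidoglycan recognition protein, read 7.96 and 10.12 in CG9740 RNAi, against 8.50 and 7.99 in CP190 RNAi, a difference of 0.80 (limma adjusted p 1.0) with CG9740 replicate 1 below both CP190 arrays.

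Heat shock proteins (0 of 6 called, -0.02 to 0.37) and ecdysone response genes (0 of 23 called, -0.13 to 0.55) gave no call. Of the 23 ecdysone probe sets, 3 reached an unadjusted p under 0.05, against 4.95% of all probe sets. The highest difference of that list, 0.55 at EcR (1632796_s_at), came from values below the Bacillus level on every array. The hemocyte markers gave 0 of 12, with differences of -0.88 (vkg) to 0.58 (Hml, a clotting factor of blood cells). An unadjusted p under 0.05 was reached by 4 of the 12, against 4.95% of all probe sets. Hml read higher in CG9740 RNAi there, though its groups overlapped, and vkg, Col4a1 and He read lower. The summed linear level of the hemocyte markers was 10986 and 8677 on the CG9740 arrays, against 10604 and 12100 on the CP190 arrays. CG9740 replicate 2 had the lowest sum of the 4, and the part of this in the results above was not tested. Bright probe sets weigh most in such a sum. The brightest, Pxn (1640097_at), read 12.03 and 11.21 in CG9740 RNAi, against 11.96 and 12.21 in CP190 RNAi. Members went both ways between the CG9740 arrays, as He read 10.67 in replicate 1 and 10.98 in replicate 2. The muscle (0 of 3), fat body (0 of 5) and germline markers (0 of 7) gave no call either, and no muscle or fat body marker lay above the Bacillus level. In whole-culture samples a change in the number of cells of a kind and a change in RNA per cell cannot be told apart.

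**Figure D4:**
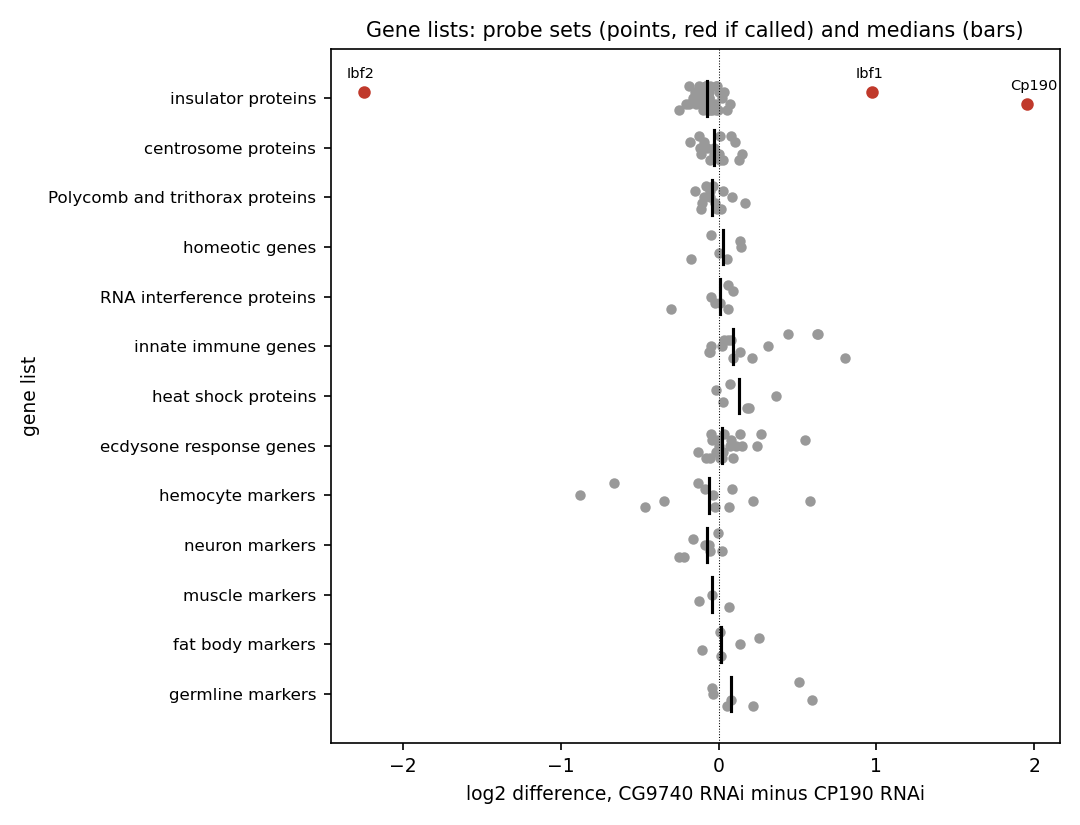
Log2 difference, CG9740 RNAi minus CP190 RNAi, of every probe set (points, called ones in red) in 8 gene lists and 5 marker lists, with the median of each list as a bar. Called points occur in the insulator protein list alone (Ibf2, Ibf1 and Cp190), and the spread is widest among the innate immune genes and hemocyte markers of the remaining lists.

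Size and call did not coincide throughout. Differences of at least 1 on the log2 scale were present at 22 probe sets (0.117%), 14 higher and 8 lower in CG9740 RNAi. They are termed 2-fold here at any level, also where a group lay below the Bacillus level and the fold is not exact. Of the 22, 14 were called. Of the 8 that were not, CG9740 arrays lay at least 1 log2 unit apart in 4, and CG9740 replicate 2 was the highest of all 6 arrays in 6. All but CG34330 read higher in CG9740 RNAi, and picking large differences that were not called favours both counts. CG31313 (1631761_at) read 6.36 and 7.71 in CG9740 RNAi, against 5.85 and 5.49 in CP190 RNAi (difference 1.36, SE 0.37, limma adjusted p 0.720). The gene bero (1627590_at) read 7.22 and 8.58 in CG9740 RNAi, against 6.92 and 6.77 in CP190 RNAi, and CG10126 (1627073_a_at) 7.61 and 8.83, against 7.33 and 6.81. In these 3 the groups did not overlap, but CG9740 replicate 1 lay nearer to the CP190 arrays than to CG9740 replicate 2. CkIIalpha-i3 (1635343_a_at) read 8.38 and 8.56 in CG9740 RNAi, against 7.56 and 7.08 in CP190 RNAi, with 8.47 and 8.32 in LacZ RNAi, so the CP190 arrays were low, with a difference of 1.15 (95% interval 0.78 to 1.52, limma adjusted p 0.0808). AdoR, the adenosine receptor gene, read 6.79 and 7.74 in CG9740 RNAi, against 6.01 and 6.21 in CP190 RNAi, with 7.02 and 6.81 in LacZ RNAi (1638877_at; limma adjusted p 0.496). The gene scaf differed by 1.18 (limma adjusted p 0.134) and Nazo by 1.02 (limma adjusted p 0.231). CG34330 (1639737_at) had the widest scatter, with 10.85 and 8.18 in CG9740 RNAi, against 10.17 and 11.46 in CP190 RNAi, and its groups overlapped (difference -1.30, SE 0.77, limma adjusted p 1.0). Without CG9740 replicate 1 the number of 2-fold differences was 52.

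**Figure D5:**
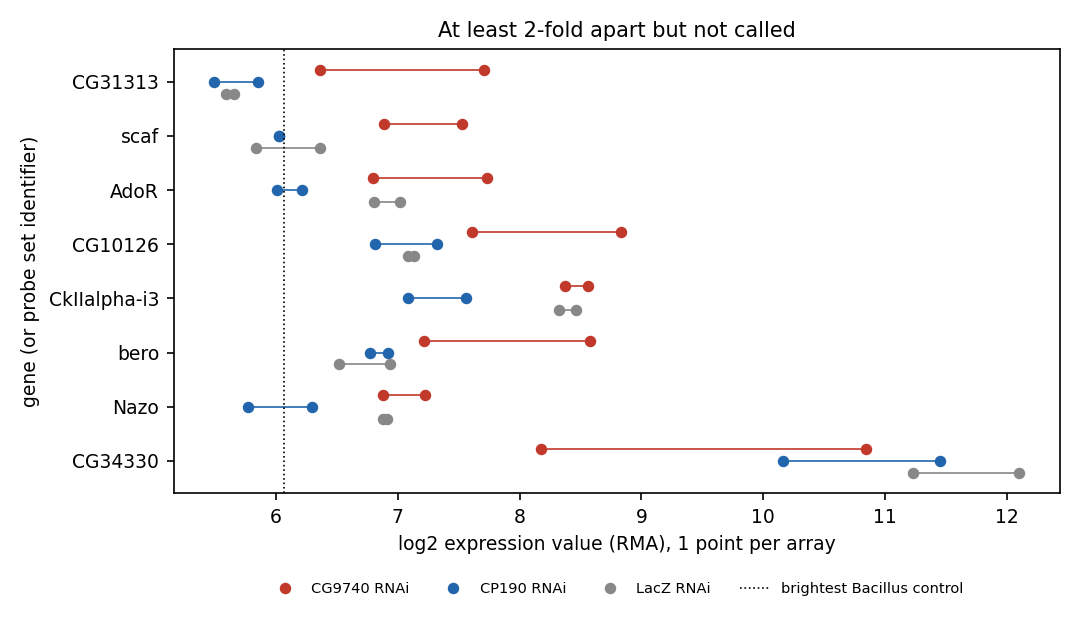
Log2 expression value on each array for the 8 probe sets at least 2-fold apart between CG9740 RNAi (red) and CP190 RNAi (blue) that were not called, with LacZ RNAi in grey and the Bacillus level dotted. Long red lines show CG9740 arrays that differ from each other, as at CG34330 (10.85 and 8.18) and bero (7.22 and 8.58).

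Just past the threshold, 6 probe sets had a limma adjusted p between 0.05 and 0.1. They were AgmNAT (difference 0.78), cn (0.69), Npc2b (0.70), Prip (0.83), CkIIalpha-i3 and CG5342. AgmNAT encodes an N-acetyltransferase that acts on agmatine, and cn the kynurenine hydroxylase of the brown eye pigment pathway. Npc2b belongs to the sterol-binding Niemann-Pick type C2 family, and Prip is an aquaporin water channel. AgmNAT (1636553_at) read 7.21 and 7.35 in CG9740 RNAi, against 6.43 and 6.57 in CP190 RNAi, with 7.16 and 7.53 in LacZ RNAi, and cn (1631012_at) 8.19 and 8.08, against 7.46 and 7.43 in CP190 RNAi, with 7.92 and 8.06 in LacZ RNAi. In both the CP190 arrays were the low ones.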

How the data were processed

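Total RNA was amplified, labelled and hybridised to 1 array per sample, per the labels' protocols. The deposited log2 values came from GCOS and RMA, per the submitters' processing notes, and the RMA implementation is not given in the sources used here. RMA compresses differences near background. The arrays' number limits the precision. Probe sets were named through the platform annotation and matched to RefSeq (Release 6 plus ISO1 MT), which changed no symbol: 13647 had 1 symbol, 402 several and 4720 none, and 13544 matched RefSeq. limma 3.58.1 in R 4.3.3 was fitted to the 4 arrays (2 residual and 5.56 prior degrees of freedom), with Benjamini-Hochberg adjustment over 18769 probe sets and a threshold of 0.05, and was tested on simulated data. The named genes are up to 15 called probe sets in each direction by size. Genes in the paragraphs on neighbours, lists and uncalled differences were named after their values were seen. Members and lists were chosen with earlier results of these data known. Nothing in the labels or the values ties arrays of the same replicate number together (correlation of deviations -0.19).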

Additional observations from a re-analysis of the deposited data

Results flagged for a closer look

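Among the 183 control probe sets, which the comparison leaves out, 1 fly control read higher on both CG9740 arrays than on every other array. It read 4.21 and 5.35 in CG9740 RNAi, against 3.26 and 3.39 in CP190 RNAi, with 3.48 and 3.10 in LacZ RNAi, a gap of 0.73 on the log2 scale. All 6 values lie below the brightest Bacillus control (6.07), and its limma adjusted p over the controls was 0.196.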

How the results depend on the processing

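The number of probe sets past the threshold was 21. It was 6 with the replicate block, 11 after quantile normalization, 13 among probe sets with a mean log2 value of at least 6, and 0 to 131 when 1 array was left out. The number of insulator list calls, 3, was 0 to 3 with 1 array left out, and that of 2-fold differences, 22, was 19 to 52. With all 6 arrays in the fit and 1 knockdown array left out, chosen after seeing the data, 14 and 6 probe sets (without CG9740 replicate 1 and 2) and 4 and 3 (without CP190 replicate 1 and 2) were called, and 1 to 3 insulator list members. A lone array is there assumed to vary like the other groups. A block with the CG9740 numbers crossed, also chosen after seeing the data, called 224. The replicate numbers are not known to pair the samples. The other alternatives called 15 with all 6 arrays, 22 after median centring, 30 with an intensity trend, 21 with robust hyperparameters, 27 at an adjusted p under 0.1, 18 without _s_at and _x_at probe sets and 21 with the controls kept. The causes were not tested. With 2 arrays a group, and only 46.0% of probe sets above the brightest Bacillus control, small changes and those of dim transcripts could be missed.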

Other observations

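The germline markers, 7 probe sets for 5 genes, held 2 at an unadjusted p under 0.05, against 4.95% of all probe sets, and none past the limma threshold. Both of the 2 measure osk, with differences of 0.59 (1631153_at) and 0.51 (1639953_at). A further osk probe set, 1640576_a_at, differed by 0.05 (limma unadjusted p 0.661), so the probe sets of this gene disagree. All osk values lay below the brightest Bacillus control on every array, where background compresses a difference. The median difference of the list was 0.08, against -0.01 over all probe sets, and 3 of the 7 lay above the brightest Bacillus control.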
